A study of Rattus norvegicus with 4 samples.

Results

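Lymphatic endothelial nuclei were described in single-nucleus RNA data from 2 fat depots of the rat, and they were chosen by a marker rule. A barcode with at least 500 detected genes was kept as a nucleus. It was called lymphatic when it held at least 3 unique molecular identifiers (UMIs, counts of captured RNA molecules) in total, and at least 2 genes detected, among the 5 genes Prox1, Mmrn1, Flt4, Reln and Ccl21. It also had to hold no more than 1 UMI in total over Pdgfra, Dcn, Mrc1, Ptprc and Myh11, which mark fibroblasts, leukocytes and smooth muscle. The rule found 358 lymphatic nuclei among 116661 kept nuclei of 4 libraries. The comparison class was blood endothelial nuclei, 7727 in all, with at least 4 UMIs over Cyyr1, Flt1, Ptprb, Adgrf5 and Btnl9 and not called lymphatic. The same limit of 1 UMI over Pdgfra, Dcn, Mrc1, Ptprc and Myh11 applied to them. The libraries came from frozen tissue of naive male SS/HsdMcwiCrl (Dahl salt-sensitive) rats aged 16 weeks, kept on a standard diet. There were 2 libraries of thoracic aorta perivascular adipose tissue (taPVAT), the fat wrapped around the chest aorta, and 2 of subscapular brown adipose tissue (BAT). The labels do not say whether 1 rat gave both tissues, nor whether a library holds tissue of 1 rat, so p-values measure only the spread between these samples.

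Lymphatic vessels drain fluid, lipid and immune cells from tissues. Their endothelium descends mostly from veins, and the transcription factor Prox1 sets and keeps its identity. Growth is driven by Vegfc and Vegfd through the receptor tyrosine kinase Flt4, known as VEGFR-3. Dendritic cells and lymphocytes enter the vessels along a gradient of the chemokine Ccl21, and Lyve1, a hyaluronan receptor, marks the blunt-ended initial capillaries. The other genes of the rule are Mmrn1, a secreted multimerin, and Reln, a large matrix protein released by lymphatic endothelium towards the smooth muscle of collecting vessels.

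The files held 14765 to 44637 barcodes and 63654436 to 158140959 UMIs per library. Lymphatic nuclei had median depths of 2395 and 2283 UMIs in taPVAT replicates 1 and 2 and 1887 and 2591 UMIs in BAT replicates 1 and 2. Blood endothelial nuclei had medians of 2082 to 2294 UMIs, and all other kept nuclei 2807 to 4673. The summed UMIs of lymphatic nuclei were 899546 and 124535 in taPVAT and 42326 and 84582 in BAT. A single UMI in the summed lymphatic RNA of a library was therefore worth 1.11, 8.03, 23.6 and 11.8 CPM (UMIs of a gene per 1000000 UMIs of the class in a library), in the same order. In BAT replicate 2 a single lymphatic nucleus held 35247 UMIs, 41.7% of that sum, with 15 UMIs of the rule's markers and 16 of the blood endothelial markers. It was the only lymphatic nucleus above 15000 UMIs. Without nuclei of such depth that library held 15 lymphatic nuclei, a share of 0.0565% and 0.817 per 100 blood endothelial nuclei, and its part in the called gene and in the named genes lower in taPVAT is given beside them. Between 126 and 424 barcode sequences occurred in both libraries of a pair, and no lymphatic barcode was lymphatic in another library.

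Sequence upstream of the marker genes is shown as context for genes that were detected together in these nuclei. The 17 genes looked up were the 5 of the rule, Lyve1 and the other genes chosen as highest against blood endothelium, not all of them named below. Of these 17 genes, 14 had an entry among RefSeq promoters of build GRCr8. Prox1 and Sema3a were among those not matched. The printed stretches are the 250 bases before the annotated start, read 5′ to 3′ on the gene's strand. Capitals mark the ETS core GGAAG (or CTTCC on the other strand) and the SOX core ACAAT (or ATTGT), the short letters shared by the sites of these endothelial transcription factor families, and a base may belong to more than 1 match. The stretches lie at chr1:174410978-174411227 on the minus strand for Lyve1, chr4:91233166-91233415 on the plus strand for Mmrn1 and chr5:61777516-61777765 on the minus strand for Ccl21.
Lyve1: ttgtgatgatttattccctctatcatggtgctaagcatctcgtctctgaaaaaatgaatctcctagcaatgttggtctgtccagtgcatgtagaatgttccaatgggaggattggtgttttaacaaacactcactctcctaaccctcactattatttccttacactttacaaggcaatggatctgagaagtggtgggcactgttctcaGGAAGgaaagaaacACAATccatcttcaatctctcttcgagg
Mmrn1: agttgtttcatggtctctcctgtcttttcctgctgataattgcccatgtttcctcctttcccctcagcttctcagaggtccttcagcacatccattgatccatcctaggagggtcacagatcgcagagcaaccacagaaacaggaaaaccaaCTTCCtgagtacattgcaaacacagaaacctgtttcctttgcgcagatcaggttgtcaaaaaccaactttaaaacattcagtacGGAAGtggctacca
Ccl21: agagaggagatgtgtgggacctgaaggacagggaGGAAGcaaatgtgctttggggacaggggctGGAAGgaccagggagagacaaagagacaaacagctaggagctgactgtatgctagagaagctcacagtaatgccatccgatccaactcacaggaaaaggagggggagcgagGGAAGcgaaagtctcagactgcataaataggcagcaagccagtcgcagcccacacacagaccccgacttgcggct
The Lyve1 stretch held 1 ETS and 1 SOX match, the Mmrn1 stretch 2 ETS matches and the Ccl21 stretch 3 ETS matches. Among the 14 genes, 11 had an ETS match and 4 a SOX match. A gene was counted when any of its windows matched, while the shares that follow are of single windows. Of 33469 promoter windows of this length 63.3% held the ETS letters and 30.02% the SOX letters. A match is a description of letters and says nothing of binding.

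Lymphatic nuclei made up a larger share of both taPVAT libraries than of either BAT library. In taPVAT replicate 1 there were 281 among 42979 kept nuclei, a share of 0.654% (95% Wilson interval 0.582% to 0.735%). In taPVAT replicate 2 there were 48 among 12336, a share of 0.389% (0.294% to 0.515%). In BAT replicate 1 there were 13 among 34553, a share of 0.0376% (0.0220% to 0.0644%), and in BAT replicate 2 there were 16 among 26793, a share of 0.0597% (0.0368% to 0.0970%). The lower taPVAT library lay above both BAT libraries, and its interval did not reach theirs. The means were 0.521% ± 0.187 (SD, n = 2) in taPVAT and 0.0487% ± 0.0156 (SD, n = 2) in BAT, a ratio of 10.7. The exact two-sided permutation test gave p = 0.33, the smallest that 2 against 2 libraries allow, and 0.5 after adjustment over 3 share tests. Within replicate number 1 the share was 17.4 times as high in taPVAT, and within number 2 it was 6.52 times as high. The intervals cover counting error only.

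Set against blood endothelium, lymphatic nuclei were again more frequent in both taPVAT libraries. There were 8.77 and 9.56 lymphatic nuclei per 100 blood endothelial nuclei in taPVAT replicates 1 and 2, against 0.609 and 0.848 in BAT replicates 1 and 2. The means of 9.17 ± 0.558 and 0.728 ± 0.170 (SD, n = 2) differed by a factor of 12.6, with the same exact permutation p of 0.33 and adjusted p of 0.5. Blood endothelial nuclei themselves made up 7.45%, 4.07%, 6.18% and 7.04% of the libraries in that order, and these values overlapped between the tissues (exact permutation p = 1). After thinning each nucleus to 1000 UMIs before the rules were applied, with 41528, 12234, 34091 and 26330 nuclei deep enough, the shares were 0.412%, 0.392%, 0.0293% and 0.0380%. The ratios per 100 blood endothelial nuclei were then 12.4, 16.1, 0.992 and 1.18, a difference between the tissue means of 13.1 against 8.44 without thinning. The share in taPVAT replicate 2 was the most dependent on a filter. With at most 10% mitochondrial UMIs per nucleus it was 0.0989%, from 9 nuclei, while the ratio to blood endothelial nuclei under that filter was 7.38. The 4 shares under the same filter were 0.436%, 0.0989%, 0.0235% and 0.0532%. Lymphatic nuclei had median mitochondrial shares of 10.9%, 16.3%, 15.4% and 14.2%, near those of blood endothelial nuclei (11.4%, 15.9%, 13.3% and 14.1%) and above those of all other nuclei (6.60% to 10.0%). Nuclei lost in isolation and lower recovery of 1 cell type cannot be told apart here from fewer lymphatic cells in the tissue.

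**Figure D1:**
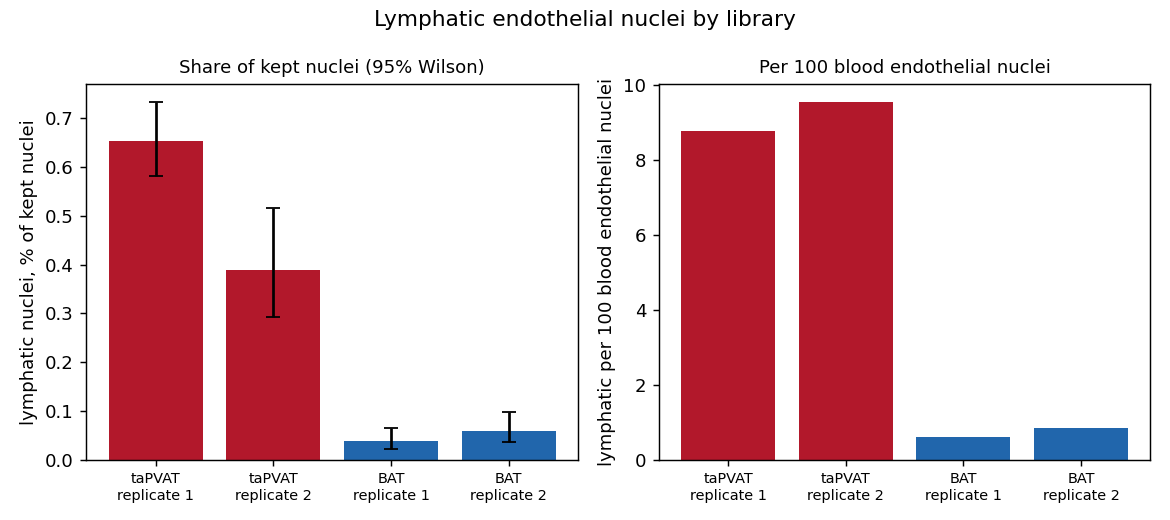
Left, lymphatic endothelial nuclei in percent of kept nuclei for each library, with 95% Wilson intervals as bars. Right, lymphatic nuclei per 100 blood endothelial nuclei of the same library. Both taPVAT libraries (red, 0.654% and 0.389%) lie above both BAT libraries (blue, 0.0376% and 0.0597%), and the 2 taPVAT libraries are closer to each other on the right, at 8.77 and 9.56.

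Members differed widely in how firmly they met the rule. The median number of marker UMIs was 8, 19.5, 9 and 9 in taPVAT replicates 1 and 2 and BAT replicates 1 and 2, with highest values of 92, 153, 25 and 74. Of the 358 members 35 sat at the threshold of 3 UMIs, 47 had 4 or 5, 131 had 6 to 11 and 145 had 12 or more. Just outside, 65 barcodes had 2 UMIs of 2 marker genes, 30 had at least 3 UMIs of a single marker gene and 31 met the marker rule but held 2 UMIs of the excluded genes. All 5 markers were detected in 58 members, 4 in 101, 3 in 122 and 2 in 77. Reln was detected in 94.1% of members, Mmrn1 in 73.7%, Ccl21 in 66.2%, Flt4 in 55.3% and Prox1 in 49.7%.

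Genes outside the rule were compared between members with few and many marker UMIs. The 20 further lymphatic genes that the rule did not use, among them Lyve1, Sema3a, Sema3d, Itga9 and Pkhd1l1, summed to 1695 CPM in the 28 members of taPVAT replicate 1 with 3 marker UMIs. They summed to 3117 CPM in the 153 members with 4 to 11 and to 4650 CPM in the 100 members with 12 or more. In the 57 barcodes of that library just outside, with 2 UMIs of 2 genes, the sum was 848 CPM, against 660 CPM in blood endothelial and 315 CPM in all other nuclei. The 12 adipocyte markers summed to 14784 CPM at 3 marker UMIs and 11480 CPM at 12 or more in the same library. In that library members at the threshold thus carried less of the independent lymphatic genes and more adipocyte RNA than the members above it. In taPVAT replicate 2 the lymphatic sum was 585, 7969 and 8989 CPM in the same 3 ranges, with 2 members at the threshold. In both BAT libraries together it was 3162, 3746 and 3946 CPM, from 5, 13 and 11 members. The adipocyte sum there was 11515, 11238 and 12567 CPM, highest in the members with 12 or more marker UMIs. Those 11 members included the nucleus of 35247 UMIs, with 15 marker UMIs, whose part in these sums was not tested.

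RNA of adipocytes was present in lymphatic nuclei of every library. The 12 adipocyte markers summed to 75.8%, 36.4%, 66.0% and 81.4% of their level in all other nuclei, in taPVAT replicates 1 and 2 and BAT replicates 1 and 2. All 12 were detected in each library. Blood endothelial nuclei held 82.4%, 66.4%, 79.6% and 81.8%. Lymphatic nuclei of taPVAT replicate 2 had the lowest share of it, and they also had the highest levels of each of the 5 rule genes. Its part in the lower marker levels of taPVAT replicate 1 was not tested. Defining genes of other cell types were near 0: Cd3d, Ms4a1, Pax5, Krt8 and Sox10 had no UMI in lymphatic nuclei of any library, and Acta2 had at most 11.8 CPM. The 7 fibroblast markers outside the rule summed to 147, 193, 70.9 and 59.1 CPM, which was 33.6% to 91.6% of the level in all other nuclei.

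**Figure D2:**
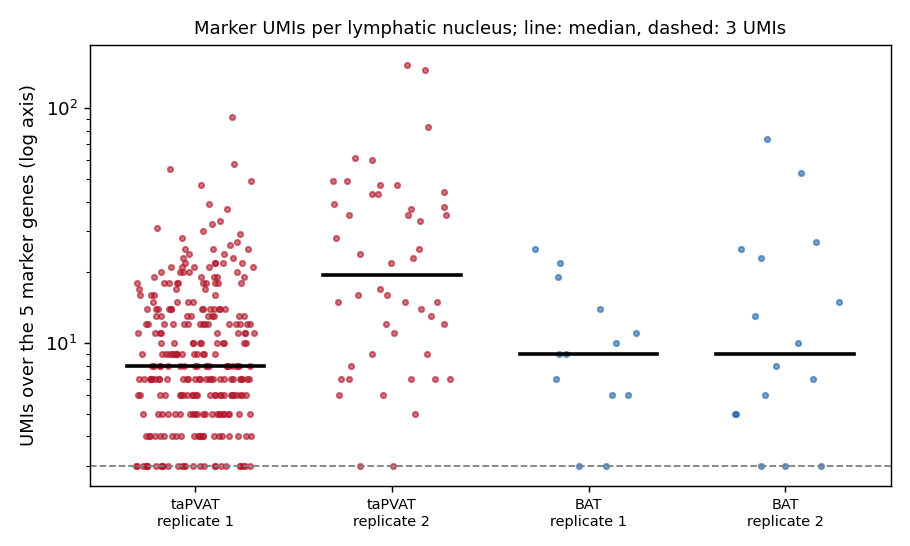
Each point is 1 lymphatic endothelial nucleus, with its UMIs over Prox1, Mmrn1, Flt4, Reln and Ccl21 on a log axis, by library. Black lines mark the medians (8, 19.5, 9 and 9) and the dashed line marks the threshold of 3 UMIs. Points are spread sideways at random, and the rule lets none lie below the dashed line.

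The 5 rule genes are given as a description, since they chose the nuclei. Prox1 measured 322, 618, 567 and 284 CPM in lymphatic nuclei of taPVAT replicate 1, taPVAT replicate 2, BAT replicate 1 and BAT replicate 2. In blood endothelial nuclei it had 6 UMIs in taPVAT replicate 1 and 0 in the other libraries. Mmrn1 measured 507, 1678, 449 and 804 CPM in the same order, against at most 2.17 CPM in blood endothelial nuclei. Reln measured 1531, 3726, 1016 and 638 CPM, against at most 1.51 CPM. Ccl21 measured 912, 4834, 969 and 1371 CPM, against 13.4, 8.83, 0.881 and 1.61 CPM. Flt4 differed least, with 247, 691, 402 and 213 CPM against 12.5, 40.0, 11.6 and 30.2 CPM in blood endothelial nuclei and 1.29, 0.884, 0.317 and 1.47 CPM in all other nuclei. Of the genes that define blood endothelial nuclei here, Flt1 measured 66.7, 8.03, 0 and 94.6 CPM in lymphatic nuclei, and Cyyr1 90.0, 0, 0 and 47.3 CPM. Ptprb, the endothelial phosphatase that acts on the receptor Tek, stood out among them with 272, 361, 213 and 225 CPM in lymphatic against 426, 524, 439 and 424 CPM in blood endothelial nuclei. Of the members 43, 7, 0 and 5 also met the blood endothelial rule. When these were left out the mean ratio per 100 blood endothelial nuclei still differed in the same direction, at 7.43 and 8.17 in taPVAT against 0.609 and 0.583 in BAT.

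Markers that the rule did not use bear on the label. Lyve1 (ENSRNOG00000026902) had 209, 132, 13 and 35 UMIs in lymphatic nuclei, which is 232, 1060, 307 and 414 CPM. In blood endothelial nuclei it measured 2.73, 1.18, 1.13 and 0.732 CPM and in all other nuclei no more than 2.36 CPM. It was detected in 44.5%, 77.1%, 53.8% and 68.8% of lymphatic nuclei and in at most 0.843% of blood endothelial nuclei, whose median depth was similar. After thinning each nucleus to 1000 UMIs, with 270 and 47 taPVAT and 12 and 16 BAT nuclei deep enough, the shares were 23.8%, 57.0%, 37.7% and 38.7%. Lyve1 was thus detected in some but not all members of each library, and every library of lymphatic nuclei lay above every library of the other classes.

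Of the guidance genes, Sema3a, Sema3d and Ntn1 lay above blood endothelium in all 4 libraries. The secreted semaphorin Sema3a, which also patterns lymphatic valves, measured 419, 1606, 142 and 532 CPM against at most 1.60 CPM in blood endothelial nuclei. Sema3d measured 342, 939, 284 and 485 CPM against 5.46, 26.5, 0.126 and 0.146 CPM. Netrin-1 (Ntn1), another guidance cue, measured 511, 747, 307 and 154 CPM against 72.4, 73.6, 58.0 and 36.5 CPM. Itga9, an integrin chain needed in lymphatic valves, measured 418, 803, 425 and 343 CPM against 56.6, 74.2, 46.0 and 26.9 CPM. Pkhd1l1 measured 640, 1164, 449 and 414 CPM against 72.3, 73.6, 61.0 and 28.0 CPM. For each of these 5 genes the lowest lymphatic library lay above the highest blood endothelial library.

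Nrp2, a co-receptor for VEGF-C, measured 528, 835, 591 and 638 CPM in lymphatic against 217, 314, 282 and 413 CPM in blood endothelial nuclei. The small GTPase gene Rhoj measured 338, 650, 378 and 721 CPM against 125, 296, 141 and 350 CPM, and Ppfibp1 307, 642, 331 and 248 CPM against 120, 233, 134 and 199 CPM. These 3 genes were abundant in both classes and higher in lymphatic nuclei of each library.

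Some lymphatic genes had few UMIs or none. Podoplanin (Pdpn), a surface mucin of lymphatic endothelium, measured 44.5, 56.2, 94.5 and 35.5 CPM, from 40, 7, 4 and 3 UMIs. Tbx1, a transcription factor of lymphatic development, measured 46.7, 72.3, 70.9 and 70.9 CPM, with no more than 1 UMI in the blood endothelial nuclei of any library. Of other genes known from lymphatic valves, Foxc2 had 6 UMIs in all 358 nuclei and the tight junction gene Cldn11 had 1. Gata2 had 12, and in taPVAT replicate 1 its level was 13.3 CPM in lymphatic against 25.2 CPM in blood endothelial nuclei. Stab2 had 1 UMI, and Nts and Hhip had 0. At these depths a level under 3.34 CPM in taPVAT replicate 1, 24.1 CPM in taPVAT replicate 2, 70.9 CPM in BAT replicate 1 or 35.5 CPM in BAT replicate 2, the values of 3 UMIs, could not be told from 0.

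**Figure D3:**
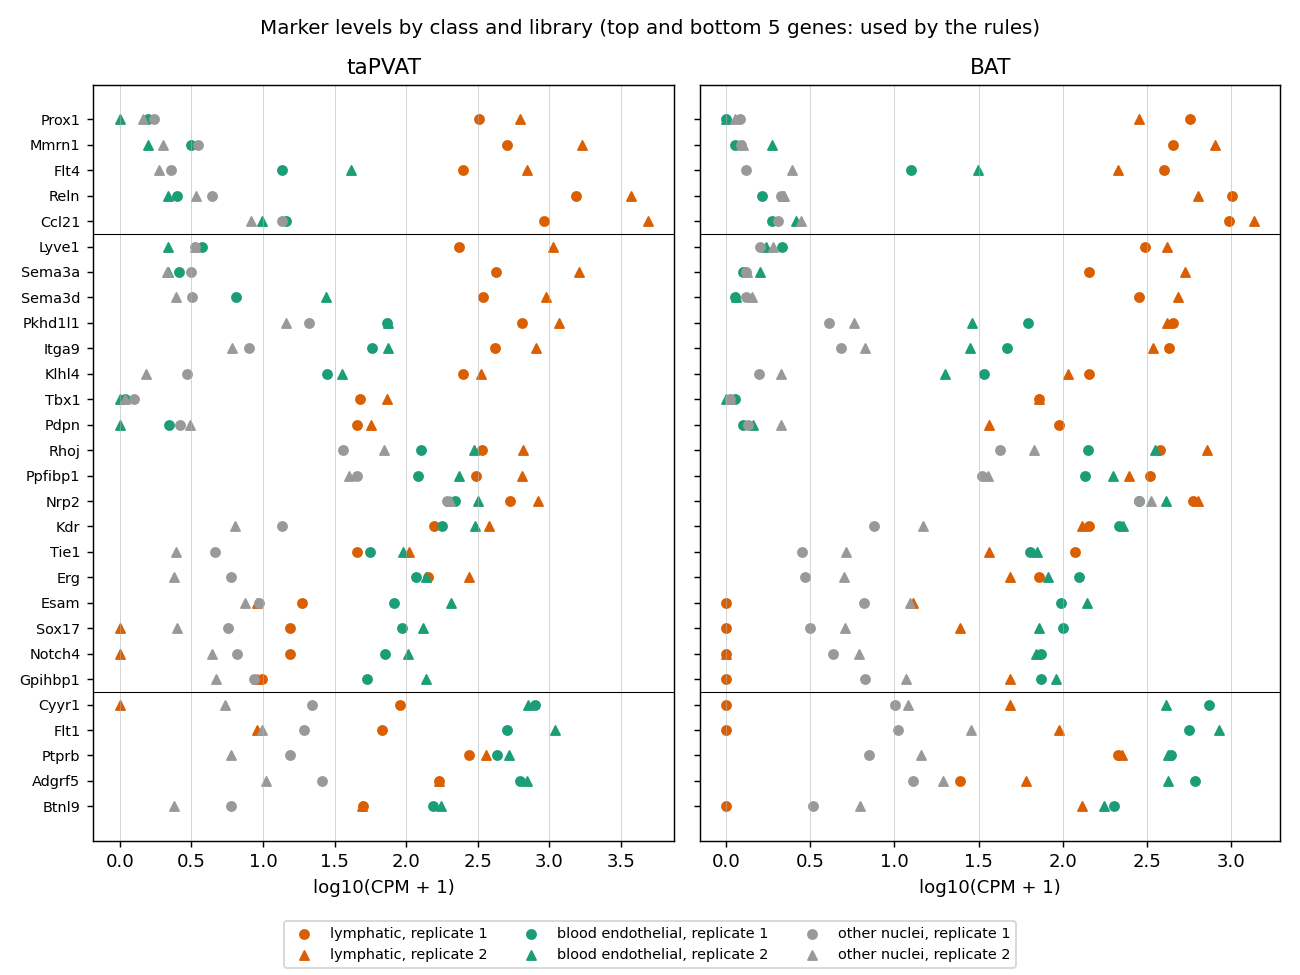
Levels of marker genes as log10(CPM + 1) in lymphatic (orange), blood endothelial (green) and all other kept nuclei (grey), in taPVAT and in BAT; circles are replicate 1 and triangles replicate 2. The top 5 and bottom 5 genes were used by the rules. Lyve1, Sema3a and Sema3d lie far to the right in lymphatic nuclei of all 4 libraries, while Kdr, Tie1 and Erg lie close together in both endothelial classes.

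Lymphatic and blood endothelial nuclei were then compared over all genes. Both classes carried the adipocyte RNA described above, whose part in these ratios was not tested. Genes with at least 10 UMIs over both classes in both taPVAT libraries were measured, 9699 outside the rules. A gene was called higher or lower when its CPM ratio was 4-fold or more in the same direction in both taPVAT libraries, with no test, since the rules chose the classes from these nuclei. This called 137 genes higher, 1.41% of those measured, and 50 lower, 0.516%. A sum of 0 was set to 3 UMIs here too. In taPVAT replicate 2 these are worth 24.1 CPM in lymphatic but 1.77 CPM in blood endothelial nuclei. A gene at 0 in lymphatic nuclei was thus harder to call lower than one at 0 in blood endothelium to call higher. Of the 137 genes 102 had lymphatic UMIs and a ratio above 1 in both BAT libraries. A gene low in blood endothelium passes there with 1 lymphatic UMI, worth 23.6 and 11.8 CPM in BAT replicates 1 and 2. Ube2ql1 passed in BAT replicate 2 with 1 UMI, a ratio of 40.4 with a counting interval of 0.684 to 775. Of the 50 genes 48 had a ratio below 1 in both BAT libraries, a count in which 0 lymphatic UMIs pass as below 1. Neither count was made over all measured genes. With 4-fold asked of all 4 libraries, and a sum of 0 set to 3 UMIs, 79 genes were higher and 4 lower. At that floor a gene low in blood endothelium cannot reach 4-fold lower in BAT, as for Dkk2, whose 0 UMIs gave ratios of 0.903 and 1.04. With at least 30 UMIs in place of 10, 78 genes were higher and 50 lower in taPVAT. The median log2 ratio of all measured genes was -0.01 in taPVAT replicate 1 and 0.17 in taPVAT replicate 2.

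Of the further lymphatic list 12 of 20 genes were measured, and 7 were 4-fold higher, namely Lyve1, Sema3a, Sema3d, Klhl4, Pkhd1l1, Itga9 and Maf. The median log2 ratio of these 12 genes was 3.02 and 3.34 in the taPVAT libraries. The filter added the UMIs of both classes. Lyve1 and Sema3a had 2 blood endothelial UMIs each in taPVAT replicate 2 and Maf had 3, so they passed through lymphatic UMIs. The count of 7 and the median are thus a description and no support for the label. Of 14 measured genes of endothelium in general none was 4-fold higher and 1, the junction adhesion gene Esam, was lower. The VEGF receptor Kdr, the receptor Tie1 and the ETS factor Erg were among the 13 between these limits. Of 12 measured genes of blood endothelium outside the rule 4 were lower and none higher. These 12 summed to 809, 1646, 567 and 650 CPM in lymphatic against 1069, 1554, 1133 and 869 CPM in blood endothelial nuclei. As a sum they were thus not lower in taPVAT replicate 2. Emcn, which was not among the 4, measured 335, 755, 165 and 307 CPM in lymphatic nuclei. Esam measured 17.8, 8.03, 0 and 11.8 CPM in lymphatic against 81.2, 204, 97.1 and 138 CPM in blood endothelial nuclei. The arterial factor Sox17 measured 14.5, 0, 0 and 23.6 CPM against 92.7, 131, 99.6 and 71.0 CPM, and the Notch receptor gene Notch4 14.5, 0, 0 and 0 CPM against 69.7, 102, 73.4 and 68.4 CPM. Gpihbp1, which carries lipoprotein lipase across capillaries, measured 8.89, 8.03, 0 and 47.3 CPM against 52.1, 137, 73.8 and 90.5 CPM. All 4 UMIs of Gpihbp1 in BAT replicate 2 came from 1 nucleus. The clotting factor carrier Vwf was the other of the 4. Of the 12 adipocyte genes none was 4-fold apart in either direction.

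The counts in chosen pathway lists are given as a description, beside the 1.41% higher and 0.516% lower of all measured genes. In the VEGF-C and VEGF-D axis 1 of 8 measured genes was higher, Angpt2, a ligand of Tek, with 72.3, 112, 0 and 11.8 CPM against 11.1, 12.4, 8.18 and 16.3 CPM, from 0 and 1 UMI in lymphatic nuclei of BAT. Vegfc itself measured 11.1, 24.1, 0 and 0 CPM in lymphatic and 56.6, 78.3, 35.3 and 31.6 CPM in blood endothelial nuclei. Of 16 measured transcription factors Nr2f2 and Maf were higher and Sox17 lower. Maf measured 35.6, 56.2, 0 and 0 CPM against at most 1.77 CPM, from 32, 7, 0 and 0 lymphatic UMIs. Nr2f2, the venous factor that acts with Prox1, measured 154, 281, 47.3 and 106 CPM against 21.9, 21.2, 19.1 and 17.3 CPM. Of 14 measured leukocyte trafficking genes 1 was higher and 1 lower. The survival cytokine Il7 measured 73.4, 64.2, 70.9 and 0 CPM against at most 1.77 CPM, and the chemokine Cxcl12 54.5, 24.1, 0 and 35.5 CPM against 305, 471, 253 and 134 CPM. Of 16 measured genes of fluid, lipid and peptide handling the scavenger receptor Stab1 and the adrenomedullin co-receptor Ramp3 were higher and Gpihbp1 lower. Ramp3 had 16, 16, 0 and 2 UMIs in lymphatic nuclei. Calcrl, the receptor that Ramp3 joins, measured 337, 474, 354 and 201 CPM against 91.5, 56.5, 68.2 and 29.4 CPM, which in taPVAT replicate 1 is a 3.68-fold ratio and under the limit. Of 15 measured junction and valve genes Itga9 was higher and Esam lower. Of 14 measured guidance genes Sema3a, Sema3d and Ntn1 were higher. Of 29 position genes, a list of Hox, T-box, Meis and other factors, 7 were measured and none of these was 4-fold apart. The rest held too few UMIs to be measured.

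The genes with the largest ratios among those called higher included Sema3a, Sh3gl3, Dtx1, Apba2, Kcnk5, Ube2ql1, Prkcz, Lyve1, Slc45a3, Piezo2 and Ston2. Sh3gl3, an endophilin of membrane curvature, measured 146, 434, 260 and 154 CPM against at most 0.755 CPM in blood endothelial nuclei. Dtx1, a regulator of Notch signalling, measured 84.5, 345, 47.3 and 0 CPM, with 3 UMIs in blood endothelial nuclei of taPVAT replicate 1 and 0 in the other libraries. Apba2, an adaptor that binds the amyloid precursor protein, measured 98.9, 329, 94.5 and 47.3 CPM against at most 0.732 CPM. Ston2, an adaptor of endocytosis, measured 331, 458, 354 and 130 CPM against 4.99, 1.77, 2.14 and 1.76 CPM. Piezo2, a channel opened by membrane stretch, measured 162, 289, 94.5 and 106 CPM in lymphatic nuclei, against 1.51, 4.12, 0.126 and 0 CPM in blood endothelial and at most 2.42 CPM in all other nuclei. The related Piezo1 measured 352, 209, 567 and 367 CPM in lymphatic, 378, 308, 403 and 317 CPM in blood endothelial and 467, 347, 524 and 320 CPM in all other nuclei. For Sh3gl3, Apba2, Ston2 and Piezo2 the lymphatic value exceeded that of blood endothelium in all 4 libraries, while for Piezo1 it lay below in both taPVAT libraries.

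The 8 genes with the smallest ratios among those called lower, by the larger of the ratios of both taPVAT libraries, were Lnx1, Slc26a10, Col8a1, Dkk2, Dach1, Cmtm8, Lama5 and Rbp7. Dach1, a transcription factor of arterial growth, measured 112, 16.1, 0 and 47.3 CPM in lymphatic against 883, 754, 962 and 597 CPM in blood endothelial nuclei. Lnx1, a ubiquitin ligase of the Notch regulator Numb, measured 12.2, 8.03, 0 and 23.6 CPM against 123, 309, 186 and 330 CPM. Rbp7, a retinol carrier of adipose capillaries, measured 16.7, 8.03, 47.3 and 23.6 CPM against 110, 171, 175 and 151 CPM. Lama5, a laminin chain of the vascular basement membrane, measured 3.34, 8.03, 0 and 0 CPM against 25.1, 75.4, 30.6 and 43.5 CPM. For these 4 genes every lymphatic library lay below the blood endothelial library of the same sample, as it did for Dkk2, Cmtm8 and Slc26a10, although most of their BAT values lie within what 3 UMIs allow. Col8a1, a short-chain collagen, did not, with 16.7, 0, 0 and 236 CPM against 157, 316, 125 and 88.6 CPM, and all 20 of its UMIs in BAT replicate 2 came from 1 nucleus.

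**Figure D4:**
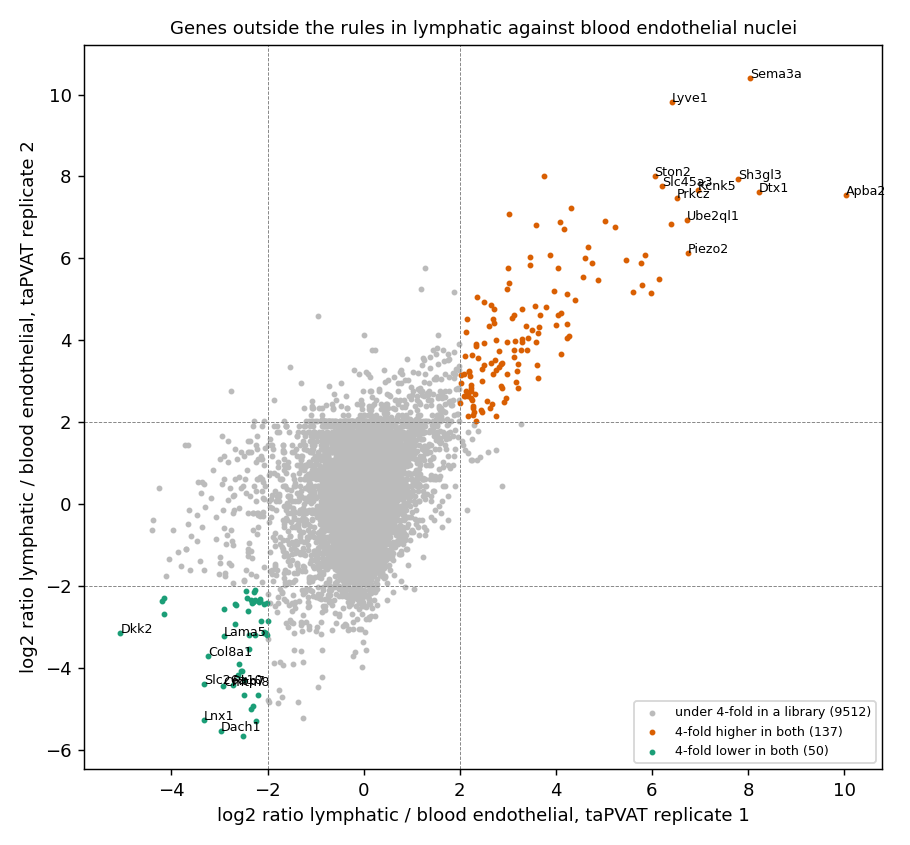
Log2 ratio of CPM in lymphatic over blood endothelial nuclei for 9699 genes outside the rules, in taPVAT replicate 1 (horizontal) and taPVAT replicate 2 (vertical), with a sum of 0 set to 3 UMIs. Orange marks the 137 genes 4-fold higher and green the 50 genes 4-fold lower in both libraries, dashed lines mark 4-fold, and the genes named in the text as highest or lowest carry their symbols. The grey cloud is centred near 0 in both libraries.

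For the comparison of lymphatic nuclei between the tissues BAT gave 29 of them. The quasi-likelihood test of edgeR on summed UMIs tested 2226 genes and called 1, which is 0.0449%, with 125 below 0.05 before adjustment. DESeq2 called 0 of these genes. For 705 genes, 31.7%, both libraries of a tissue lay on the same side of both of the other. Of the 9 tested genes of the further lymphatic list none was called, 2 did not overlap, and the median log2 difference, taPVAT over BAT, was 0.73 against 0.02 for all genes tested. In the same nuclei the median was 0.58 over 8 tested genes of endothelium in general and 1.22 over 2 of blood endothelium outside the rule, and it was -0.54 over 11 adipocyte genes. The part of these shifts in the lymphatic list's median was not tested. For Lyve1 the log2 difference was 0.80 ± 0.64 (SE) with an edgeR adjusted p of 0.999, and its taPVAT and BAT values overlapped. Ntn1, Klhl4 and Pkhd1l1 had higher values in both taPVAT libraries than in both BAT libraries, with log2 differences of 1.52, 1.25 and 1.08 that did not pass the test. As a description only, since these genes chose the nuclei, the log2 differences were 1.70 for Reln, 1.30 for Ccl21, 0.78 for Mmrn1, 0.64 for Flt4 and 0.19 for Prox1. The values of the 2 tissues overlapped for Ccl21, Mmrn1, Flt4 and Prox1 and not for Reln.

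The called gene was Foxp2 (ENSRNOG00000054508), a forkhead transcription factor, higher in taPVAT. It had 463 and 60 UMIs in lymphatic nuclei of taPVAT replicates 1 and 2, and 0 and 1 UMI in those of BAT replicates 1 and 2. These are 515, 482, 0 and 11.8 CPM. The 2 taPVAT values lay close together and far above both BAT values. In taPVAT replicate 2 the 60 UMIs came from 16 nuclei, and 1 nucleus held 20 of them. In taPVAT replicate 1 no nucleus held more than 18 of the 463. The log2 difference was 5.94 ± 0.94 (SE) with an edgeR adjusted p of 0.000244. Over pooled UMIs the ratio was 64.8 with a counting interval of 11.6 to 2565, wide because BAT held 1 UMI, which came from the nucleus of 35247 UMIs. The call was lost without taPVAT replicate 1 (adjusted p = 0.343), with at most 15000 UMIs per nucleus (0.0688) and in DESeq2 (0.132), each with a difference in the same direction. The size rests on that 1 UMI: the log2 difference was 10.45 without BAT replicate 2, 10.00 with doublets removed and 10.13 with at most 15000 UMIs, where no UMI was left in BAT and the fitted size depends on the fit's prior count.

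Foxp2 followed the tissue in other nuclei too. In all other kept nuclei it measured 507, 277, 64.7 and 25.3 CPM, and in blood endothelial nuclei 391, 139, 48.4 and 19.8 CPM, in taPVAT replicates 1 and 2 and BAT replicates 1 and 2. In every class both taPVAT libraries lay above both BAT libraries. The test of whether the tissue difference differs between lymphatic and blood endothelial nuclei gave a log2 term of 3.13 ± 1.07 (SE) for Foxp2, with an edgeR adjusted p of 0.812, so the difference is not shown to be particular to lymphatic nuclei. Foxp2 was detected in 52.7%, 33.3%, 0% and 6.25% of lymphatic nuclei against 65.1%, 51.5%, 16.7% and 6.12% of the other, deeper nuclei. Read as a share of nuclei it did not exceed the surrounding level in taPVAT. As a level it stood at 102% of that in the other nuclei in taPVAT replicate 1 and at 174% in taPVAT replicate 2, where the median adipocyte marker stood at 78.5% and 39.8%. The 174% includes the nucleus that held 20 of the 60 UMIs. In BAT Foxp2 stood at 0% and 46.7%, where the median adipocyte marker stood at 72.7% and 81.6%. These BAT percentages come from 0 and 1 UMI. The level in the other nuclei, 64.7 and 25.3 CPM, lay under the 70.9 and 35.5 CPM that 3 UMIs are worth. Lymphatic Foxp2 in BAT could thus not be told from the surrounding level. In taPVAT replicate 1 Foxp2 was detected in 52.8% of lymphatic nuclei with a Lyve1 UMI and in 52.6% of those without. The part of adipocyte RNA in the Foxp2 difference was not tested.

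The 8 genes named next did not pass the test, with edgeR adjusted p between 0.510 and 0.662. Glis3, a zinc-finger transcription factor, measured 335, 1092, 70.9 and 236 CPM in lymphatic nuclei, while blood endothelial nuclei held 13.2, 14.1, 11.8 and 12.6 CPM and all other nuclei 9.20, 12.9, 9.47 and 13.8 CPM. In each of the 4 libraries Glis3 was thus higher in lymphatic than in other nuclei, and its tissue difference in lymphatic nuclei was 2.09 ± 0.67 (SE) on the log2 scale. It was 1.02 without taPVAT replicate 2, 3.42 without BAT replicate 2 and 1.46 with doublets removed. Igfbp5, a secreted carrier of insulin-like growth factors, measured 129, 353, 47.3 and 35.5 CPM, against 25.5 to 57.3 CPM in all other nuclei. The cytoskeletal regulator Nav2 measured 192, 128, 47.3 and 11.8 CPM, against 200, 75.4, 60.3 and 28.4 CPM in blood endothelial and 249, 68.7, 64.8 and 15.2 CPM in all other nuclei. Both taPVAT libraries thus lay above both BAT libraries for Nav2 in every class. The junction scaffold Magi3 measured 168, 265, 47.3 and 47.3 CPM, against 251, 365, 241 and 305 CPM in blood endothelial and 107, 111, 83.5 and 83.6 CPM in all other nuclei. Lymphatic nuclei of BAT replicates 1 and 2 held 3 and 20 UMIs of Glis3 and 2 and 3 of Igfbp5. They held 2 and 1 of Nav2 and 2 and 4 of Magi3. All but Glis3 were thus under 3 UMIs in BAT replicate 1, and Nav2 in BAT replicate 2 too. On the lower side Art3 measured 82.3, 16.1, 354 and 189 CPM, Svep1, a matrix protein that binds Itga9, 162, 128, 496 and 591 CPM, Bend7 66.7, 48.2, 118 and 296 CPM, and Xdh, xanthine dehydrogenase, 157, 193, 260 and 934 CPM. Of their UMIs in BAT replicate 2 the nucleus of 35247 UMIs held 11 of 16 for Art3, 32 of 50 for Svep1, 45 of 79 for Xdh and 2 of 25 for Bend7, while another single nucleus held 15 of the 25 of Bend7. Without that library the log2 difference was -0.82 for Bend7 and -0.45 for Xdh, against -1.84 and -1.83 with all libraries. Without BAT replicate 1 it was -2.30 for Bend7, with an edgeR adjusted p of 0.0340. All 4 were also present in the other nuclei, at 84.8 to 849 CPM. Lymphatic nuclei of taPVAT replicate 2 held 6.58% of that level for Art3, 24.0% for Svep1, 26.7% for Xdh and 37.9% for Bend7, and those of the other libraries 60.3% to 153%.

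**Figure D5:**
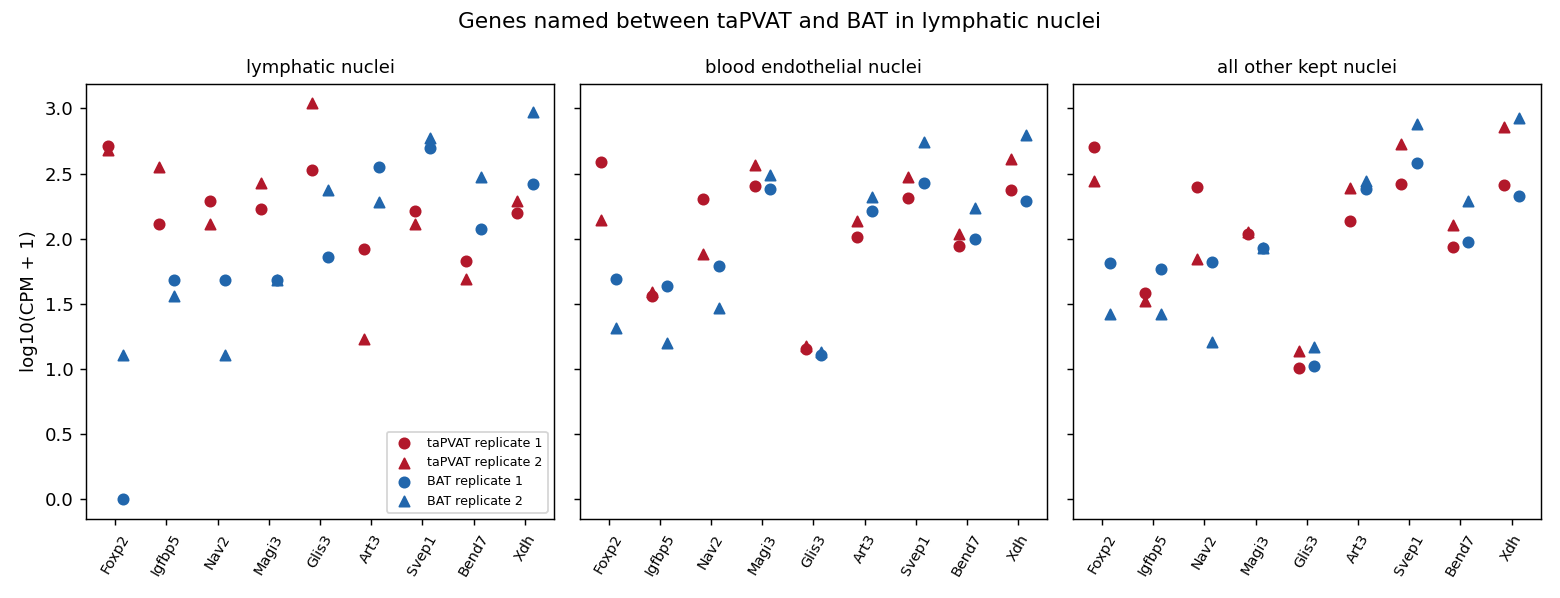
Levels as log10(CPM + 1) of the 9 genes named between the tissues, in lymphatic, blood endothelial and all other kept nuclei; taPVAT libraries are red, BAT libraries blue, circles replicate 1 and triangles replicate 2. Foxp2 is higher in taPVAT in all 3 panels, while Glis3 is high in the lymphatic panel only. Foxp2 is the gene past the test's threshold.

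Blood endothelial nuclei gave a larger sample of the same comparison. The edgeR test called 0 of 12225 genes in them (0%), with 250 below 0.05 before adjustment, and DESeq2 called 17. A joint fit of both classes with the library as a term asked which genes differ between the tissues by another amount in lymphatic than in blood endothelial nuclei. It called 2 of 9998 genes, 0.02%. Sema3d had a term of -5.31 ± 0.73 (SE) on the log2 scale with an edgeR adjusted p of 3.03e-09, and the term was -3.24 with at least 4 marker UMIs per lymphatic nucleus. Its difference between the tissues in lymphatic nuclei was 0.70 ± 0.62 with overlapping values. In blood endothelial nuclei Sema3d had 58 and 45 UMIs in taPVAT, in 33 of 3203 and 6 of 502 nuclei, and 1 UMI in each BAT library, so the term rests on a small share of taPVAT blood endothelial nuclei. In taPVAT replicate 2 a single blood endothelial nucleus held 29 of the 45 UMIs. Col8a1 had a term of -3.99 ± 0.63 with an edgeR adjusted p of 1.58e-06, which rests on the 1 nucleus with 20 UMIs in BAT replicate 2. Without that library the term was 7.96 with an edgeR adjusted p of 0.955, from 0 lymphatic UMIs in BAT, so that its size depends on the fit's prior count.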

How the data were processed

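Nuclear RNA of 2 taPVAT and 2 BAT libraries was measured with the droplet-based 3-prime kit of 10x Genomics, per the labels. The deposited matrices hold raw UMI counts per gene and barcode for 32883 genes, made by the authors with Cell Ranger 7.1.0 on build Rnor_6.0, per the submitters' processing notes. How introns and strand were handled is not given in the sources used here. How reads of overlapping and antisense genes were counted is therefore not known here. Symbols were taken from the files. Ccl21 can share reads with near-identical copies, so its level is uncertain. Pecam1, Cd36, Car4, Col1a2, Figf, Ccbe1 and Hoxa5 were not analysed here.

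Barcodes with at least 500 genes were kept, and the rule was applied to their counts. The members, gene lists and tests were chosen with earlier results of these data known. Counts were summed per class and library, and levels are CPM of the class. Tissues were compared in R 4.3.3 with edgeR 4.0.16 and its quasi-likelihood test (TMM scaling, filterByExpr, Benjamini-Hochberg adjustment, threshold 0.05), and class by tissue with the library as a term. Shares were compared with exact permutation tests. Doublets were not removed in the main results. As an alternative they were scored with Scrublet (scanpy 1.11.5), which called 0 barcodes in BAT replicate 1, where the highest scores were removed instead. DESeq2 1.42.0 was another alternative. The fits were tested on simulated data. Between the tissues the called genes were named, with the 4 uncalled genes of the smallest p in each direction that had the same direction in both replicate numbers. Against blood endothelium the 12 genes with the largest smaller ratio of both taPVAT libraries and the 8 with the smallest larger ratio were named. A gene that these rules name is not reported here. Symbols that are only identifiers were passed over, and listed genes were given by counts with examples.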

Additional observations from a re-analysis of the deposited data

Results flagged for a closer look

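The 2 genes Sema3d and Col8a1 differed between the tissues by another amount in lymphatic than in blood endothelial nuclei, by the class by tissue term of edgeR with Benjamini-Hochberg adjustment. Sema3d had a term of -5.31 on the log2 scale, and in blood endothelial nuclei it had 58 and 45 UMIs in the taPVAT libraries and 1 in each BAT library. Its log2 difference there, 6.53 ± 1.11 (SE), did not pass the test of that class, with an edgeR adjusted p of 0.832 (0.000135 in DESeq2). Col8a1 had a term of -3.99, which did not pass the test without BAT replicate 2, with at least 4 marker UMIs or without nuclei that met both rules (edgeR adjusted p of 0.955, 1 and 0.979). No lymphatic Col8a1 UMI was left in BAT under these settings, so the fitted terms of 7.96, 7.89 and 5.35 depend on the prior count and show no reversed difference. In DESeq2, with all nuclei and libraries, the Col8a1 term was -3.86 and did not pass either (DESeq2 adjusted p of 0.9998).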

How the results depend on the processing

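Each taPVAT minus BAT difference in share and in lymphatic nuclei per 100 blood endothelial nuclei kept its direction under all 15 alternatives run for it, and without 1 library they lay between 0.340 and 0.605 percentage points and between 8.04 and 8.83. Thinning to 1000 UMIs gave 0.368 and 13.1. The count of 187 genes 4-fold apart from blood endothelium was 562 at 2-fold and 83 when all 4 libraries had to show it, 79 of them higher and 4 lower. With at least 30 UMIs it was 78 higher and 50 lower of 6905 measured. Of genes called between the tissues in lymphatic nuclei, against 1, DESeq2 called 0, no filter on low counts gave 2, at most 15000 UMIs per nucleus gave 0 and leaving out 1 library gave 0 to 17, 0 without taPVAT replicate 1 and 17 without BAT replicate 1. Class by tissue calls, against 2, were 1 in DESeq2, 1 with at least 4 marker UMIs, 1 without nuclei of both rules and 1 to 9 without 1 library, with 9 without taPVAT replicate 1. The Col8a1 term was 7.89, 5.35 and 7.96 with at least 4 marker UMIs, without nuclei of both rules and without BAT replicate 2, with edgeR adjusted p of 1, 0.979 and 0.955 and a size that depends on the prior count, since no lymphatic UMI of it was left in BAT. Without 1 library it lay between -12.97 and 7.96, the former without taPVAT replicate 1, which leaves no lymphatic UMI of it in taPVAT. Sema3d kept its direction and its call in all 12 alternatives, with a term of -3.24 at the smallest, with at least 4 marker UMIs. The cause of these changes was not tested. In blood endothelial nuclei DESeq2 called 17 genes, and leaving out 1 library gave 0 to 12. The limit of 15000 UMIs was chosen after seeing the data.

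A replicate block in the edgeR fit gave 1 called gene in lymphatic and 233 in blood endothelial nuclei, against 1 and 0. Same-numbered libraries deviated together with a correlation of 0.159 over genes in lymphatic and 0.606 in blood endothelial nuclei, from 2 pairs that the labels do not establish. Within number 1 and number 2 the share differed by 0.616 and 0.329 percentage points and the ratio to blood endothelium by 8.16 and 8.71.

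BAT held 13 and 16 lymphatic nuclei with 42326 and 84582 UMIs, and a gene under 70.9 or 35.5 CPM there was within 3 UMIs of 0.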
